A study of Homo sapiens with 6 samples.

Results

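The 4 inhibitor of DNA binding genes, *ID1*, *ID2*, *ID3* and *ID4*, were taken by their GENCODE gene names and examined for R-loops in HEK293T, a line derived from human embryonic kidney. The peaks were selected on their position in the lists, as those that overlapped a gene record or 5 kb on either side of it, which gave 8 of the 10231 peaks of untreated cells and 9 of the 11085 peaks of *N*2-heptynyl-dG-treated cells. The 4 genes are among 20098 protein-coding genes, and they were picked with peaks at these genes already known, so what follows is a description. The treated cells were wild-type HEK293T cells given 10 μM *N*2-heptynyl-dG, a deoxyguanosine with an alkynyl chain on N2 that gives a minor-groove lesion in DNA, for 3 h, and the untreated cells were the same line without the nucleoside. Both were exposed to 5 mM N3-kethoxal for 10 min before genomic DNA was isolated, and strand-specific kethoxal-assisted sequencing (spKAS-seq) was done with 2 samples per condition. The comparison asks whether the lesion-forming nucleoside alters where R-loops are found. There is 1 peak list per condition and it holds positions and strands only, without heights, so the depth behind a peak is unknown, no value has a spread between replicates, and no test of a difference was made. The identity of the cells could not be checked on marker genes from such lists.

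ID proteins are helix-loop-helix proteins that lack the basic region with which their relatives grip DNA. They pair with E proteins and other basic helix-loop-helix factors, hold them off DNA, and are known for keeping cells undifferentiated and dividing. The genes are short, respond quickly to serum or bone morphogenetic protein (BMP), and are known as direct targets of the SMAD proteins that carry the BMP signal. An R-loop forms when nascent RNA stays paired with the template strand, and the displaced strand, which has the sequence of the RNA, then exposes single-stranded guanines to N3-kethoxal. A peak on the strand of a gene therefore has the orientation of an R-loop made by transcription of that gene. In the following, such peaks are called gene-strand peaks.

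All 4 genes had gene-strand peaks in both lists, and in both lists such a peak covered the canonical transcription start site and such a peak, the same or another, reached into the 5 kb downstream of the gene. In untreated cells these peaks summed to 13750 bp at the 4 genes, and in treated cells to 12000 bp. The sums by gene were 3500 and 2250 bp at *ID1*, 2750 and 2500 bp at *ID2*, 4500 and 4250 bp at *ID3*, and 3000 bp in both lists at *ID4*. At *ID1* and *ID3* 1 long untreated peak was listed as 2 peaks after treatment, whereas at *ID4* 2 untreated peaks at the 5′ end were listed as 1 treated peak.

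**Figure D1:**
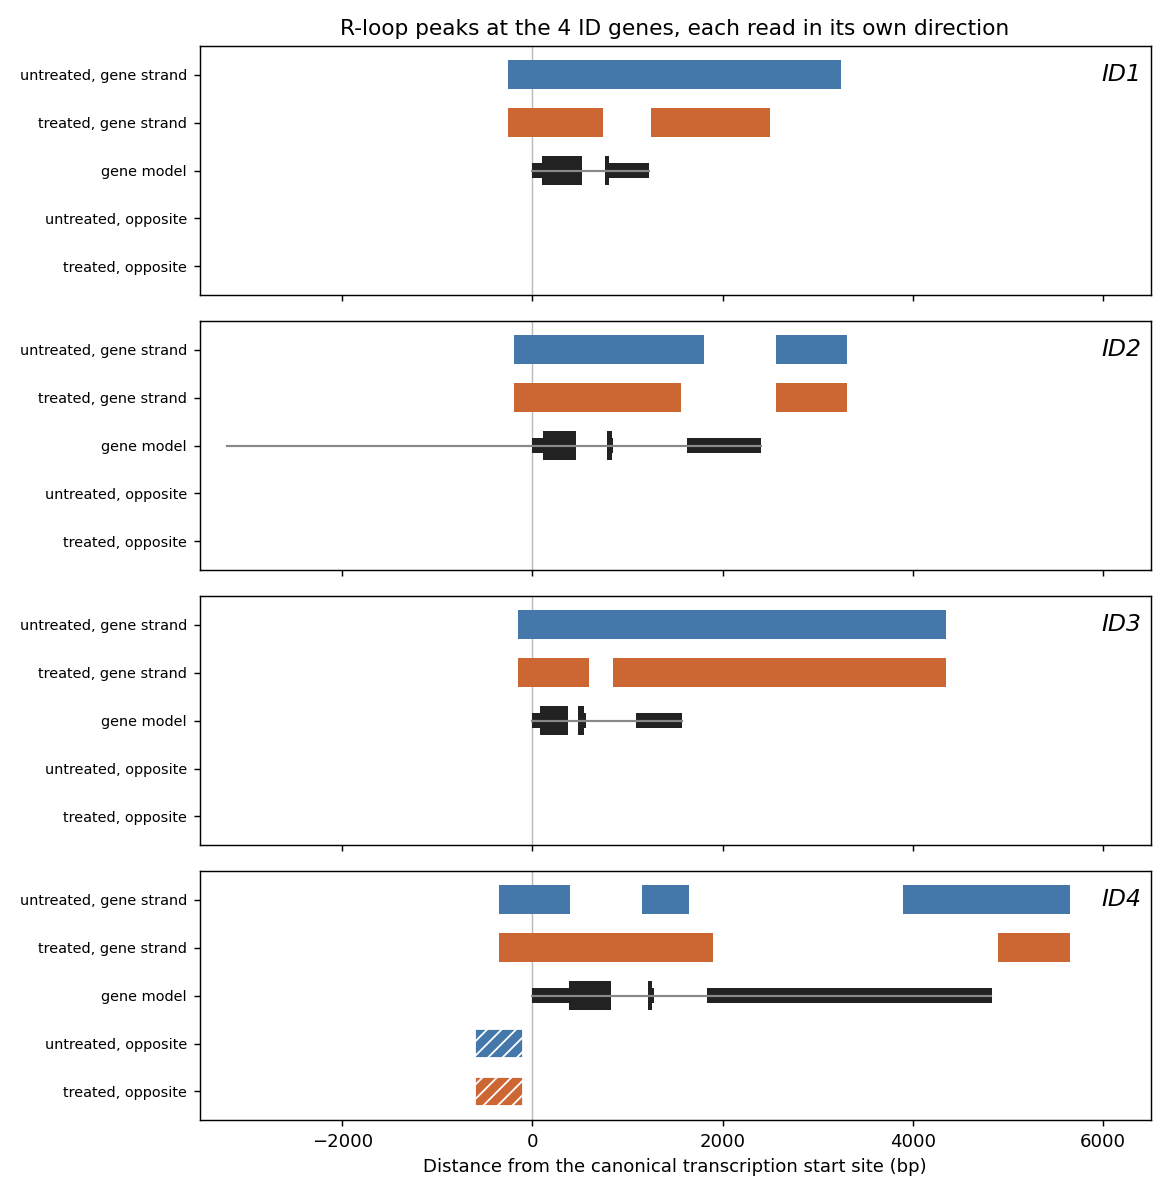
Peaks of both lists at the 4 genes, plotted against the distance from the canonical transcription start site in bp, with each gene read from left to right. Blue bars are untreated and orange bars treated peaks, hatched bars lie on the opposite strand, and in the gene models tall boxes are coding sequence, low boxes the rest of the exons and the grey line the whole gene record. All 4 genes have a gene-strand peak over the start site and one that reaches beyond the gene end in both lists.

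The sequence just before the start site is shown for *ID1*, *ID3* and *ID4*, since gene-strand peaks of both lists cover it. At *ID2* it belongs to an untranslated exon of a longer transcript and is not shown. The bases are 150 upstream of the canonical start on the gene strand (GRCh37), and capitals mark TATAA and CCAAT on either strand.
*ID1*, chr20:30192942-30193091, plus strand: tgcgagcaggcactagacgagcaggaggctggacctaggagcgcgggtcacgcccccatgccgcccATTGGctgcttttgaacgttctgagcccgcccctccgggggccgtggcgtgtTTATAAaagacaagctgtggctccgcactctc
*ID3*, chr1:23885993-23886142, minus strand: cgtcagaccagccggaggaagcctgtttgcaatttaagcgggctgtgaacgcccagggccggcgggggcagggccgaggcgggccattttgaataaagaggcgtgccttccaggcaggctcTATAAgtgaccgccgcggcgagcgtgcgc
*ID4*, chr6:19837451-19837600, plus strand: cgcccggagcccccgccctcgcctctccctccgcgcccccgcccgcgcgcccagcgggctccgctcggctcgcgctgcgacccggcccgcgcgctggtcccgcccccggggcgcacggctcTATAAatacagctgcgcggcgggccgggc

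In the 300-base promoter windows of RefSeq (GRCh38.p14, 250 bases before to 50 after the start), which were found unchanged in GRCh37 for all 4 genes, TATAA or its complement occurred in *ID1*, *ID3* and *ID4*, and began 32, 29 and 29 bases before the start. Of 35116 promoter windows, 20.4% hold it. At *ID1* the TATAA and TTATA matches overlap and stand for 1 place. CCAAT or ATTGG occurred in *ID1*, *ID2* and *ID4*, among them 3 places in *ID2*, and in 34.6% of all windows. The letters GGCGCC, which occur in BMP-responsive elements, and CACGTG, one form of the E-box, were in none of the 4 windows. They were in 19.2% and 7.26% of all windows. Other forms of the E-box, and sequence outside the windows, were not searched. TGACG, the core of the cyclic AMP response element, or its complement, was found in *ID3* alone among the 4 and in 24.6% of all windows. Such matches describe letters and not bound sites.

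*ID1* (ENSG00000125968) is a gene of 1233 bp with 2 exons on the plus strand, chr20:30193086-30194318 (GRCh37). Untreated cells had 1 plus-strand peak of 3500 bp, chr20:30192835-30196334, which began 257 bp before the canonical start, covered 100% of the gene record and ran on for 2016 bp beyond the gene. Treated cells had 2 peaks, of 1000 bp (chr20:30192835-30193834) and 1250 bp (chr20:30194335-30195584), with the same first base and with an end 1266 bp beyond the gene. They covered 60.7% of the record. The 500 bp between them, chr20:30193835-30194334, held the last 21 bp of the intron, the 39 bp of coding sequence in exon 2, 419 bp of 3′ untranslated sequence and 21 bp downstream of the canonical transcript. The other 750 bp of the untreated peak without a treated peak were its 3′ end.

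The part of this stretch that is intron and coding sequence is shown because only the untreated list has a peak there. It has no run of 3 or more G on the gene strand, and capitals, which mark such runs here and below, are therefore absent. The whole 500 bp hold 9 such runs, or 18 per kb.
*ID1*, chr20:30193835-30193894, plus strand: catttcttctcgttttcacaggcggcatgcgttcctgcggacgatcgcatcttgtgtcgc

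Downstream of *ID1*, the record of the microRNA gene *MIR3193* (chr20:30194989-30195043, plus strand) lay inside the untreated peak and inside the second treated peak. Its mature product is given because the record has the direction of the peaks, with the seed, bases 2 to 8, in capitals. Whether it is made in these cells was not measured.
hsa-miR-3193: uCCUGCGUaggaucugaggagu

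A long noncoding RNA gene listed only by its identifier, ENSG00000289875, lies head to head with *ID1* on the minus strand (chr20:30192162-30192929), and its 5′ end is at position -163 from the *ID1* start. Neither list had a minus-strand peak on it.

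*ID2* (ENSG00000115738) has a record of 5617 bp on the plus strand, chr2:8818975-8824591, but its canonical transcript of 2406 bp starts 3211 bp into the record. The first 3020 bp of the record had no peak in either list, so that the start of the longest transcript was not covered. The canonical start was covered, by a plus-strand peak of 2000 bp in untreated (chr2:8821995-8823994) and of 1750 bp in treated cells (chr2:8821995-8823744). These peaks began 191 bp before the canonical start and held all 402 bp of coding sequence. The treated peak stopped 250 bp earlier, and the bases without a treated peak were 70 bp of the last intron and 180 bp of 3′ untranslated sequence. A second peak of 750 bp, chr2:8824745-8825494, lay wholly downstream of the gene, ended 903 bp beyond it, and had the same borders in both lists. The peaks covered 35.6% of the gene record in untreated and 31.2% in treated cells, or 75.2% and 64.8% of the canonical transcript. *ID2-AS1*, a long noncoding RNA gene on the minus strand, begins at position -192 from the canonical *ID2* start (chr2:8806766-8821994), directly beside the first base of the *ID2* peaks. It had no minus-strand peak in either list.

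The intron part of this stretch at *ID2*, shown for comparison with the other stretches that differ, is an intron end with 41.4% C and 14.3% G. It is without a run of 3 G, and the whole 250 bp hold 1 such run.
*ID2*, chr2:8823745-8823814, plus strand: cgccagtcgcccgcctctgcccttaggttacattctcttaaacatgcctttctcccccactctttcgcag

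*ID3* (ENSG00000117318) is a gene of 1576 bp with 3 exons on the minus strand, chr1:23884417-23885992. The untreated list had 1 minus-strand peak of 4500 bp, chr1:23881647-23886146, which began 154 bp before the start, covered 100% of the record and ran 2770 bp beyond the gene end. It was 1 of the 3 untreated peaks of that width or more. The treated list had peaks with the same outer borders, of 750 bp (chr1:23885397-23886146) and of 3500 bp (chr1:23881647-23885146), which covered 84.1% of the record. The first held the start site and all 357 bp of coding sequence, and the second held 490 bp of 3′ untranslated sequence and the 2770 bp downstream. The 250 bp without a treated peak, chr1:23885147-23885396, lay wholly in the second intron of the canonical transcript, and within an exon of another *ID3* transcript for which no coding sequence is annotated. No other gene record was overlapped by these peaks.

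This intron stretch is shown whole because it is the sole difference between the lists at *ID3*. It has 49.2% G + C, 27.2% G and 5 runs of 3 G on the gene strand.
*ID3*, chr1:23885147-23885396, minus strand: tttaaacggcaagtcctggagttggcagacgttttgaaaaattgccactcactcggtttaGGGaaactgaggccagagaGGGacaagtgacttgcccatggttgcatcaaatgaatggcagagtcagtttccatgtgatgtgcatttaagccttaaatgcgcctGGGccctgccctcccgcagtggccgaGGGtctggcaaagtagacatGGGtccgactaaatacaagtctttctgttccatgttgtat

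*ID4* (ENSG00000172201) is a gene of 4828 bp with 3 exons on the plus strand, chr6:19837601-19842428. Untreated cells had 3 plus-strand peaks, of 750 bp over the start site (chr6:19837251-19838000), of 500 bp around exon 2 (chr6:19838751-19839250) and of 1750 bp over the gene end (chr6:19841501-19843250). Treated cells had 2, of 2250 bp from 350 bp upstream of the start to 1899 bp beyond it (chr6:19837251-19839500) and of 750 bp downstream of the gene (chr6:19842501-19843250). The first treated peak spanned both of the 5′ untreated peaks and the 750 bp between them, and reached 250 bp further. It held all 483 bp of coding sequence, of which the untreated peaks held 15 and 42 bp. At the other end, 1000 bp of the third untreated peak, of which 928 bp are 3′ untranslated sequence, had no treated peak. The gains and losses were equal, and the share of the record covered was 37.9% in untreated and 39.4% in treated cells, although the bases differed.

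The stretches below lie in the introns of *ID4* and had a peak in the treated list alone. The first is the 5′ part of intron 1 within the 750 bp between the untreated peaks. It has 45.7% G and holds 22 runs of 3 or more G in 300 bases, where the whole 750 bp hold 27, or 36 per kb. The second is the 3′ end of intron 2, with 31.1% G and 5 such runs in 190 bases.
*ID4* intron 1, chr6:19838427-19838726, plus strand: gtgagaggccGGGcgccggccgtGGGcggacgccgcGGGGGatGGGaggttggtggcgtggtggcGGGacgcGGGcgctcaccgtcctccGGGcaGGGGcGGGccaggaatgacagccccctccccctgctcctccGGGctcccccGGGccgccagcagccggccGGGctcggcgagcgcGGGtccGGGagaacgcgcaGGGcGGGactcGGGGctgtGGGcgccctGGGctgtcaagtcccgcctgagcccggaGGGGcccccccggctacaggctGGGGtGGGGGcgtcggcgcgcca
*ID4* intron 2, chr6:19839251-19839440, plus strand: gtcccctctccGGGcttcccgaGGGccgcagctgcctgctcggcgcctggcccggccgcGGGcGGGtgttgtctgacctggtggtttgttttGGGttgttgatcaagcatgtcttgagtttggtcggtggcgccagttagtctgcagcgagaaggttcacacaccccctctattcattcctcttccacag

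*ID4* was the one member with a peak on the opposite strand. A minus-strand peak of 500 bp, chr6:19837001-19837500, had the same borders in both lists and lay from position -600 to -101 relative to the *ID4* start. It overlapped the first 250 bp of the plus-strand peaks. The long noncoding RNA gene *LNC-LBCS* runs through this place on the minus strand (chr6:19323659-19839311), with its 5′ end 1710 bp inside *ID4*, so the peak is on the gene strand of that RNA. Among 20098 protein-coding genes of chromosomes 1 to 22 and X, 15.2% had an opposite-strand peak within 5 kb in both lists.

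The presence of peaks was set against all protein-coding genes, as a description, and nothing is read from the counts of the *ID* genes, for which the rule used the same peaks. An untreated peak on either strand lay within 5 kb of 45.5% of these genes, and a treated peak within 5 kb of 47.8%. The shares were 34.5% and 35.3% for genes with a record of 1 to 5 kb. A gene-strand peak was present in both lists at 29.5% of the genes, or 5934 genes. A gene-strand peak lay over the canonical start of 13.9% of genes in untreated and 15.6% in treated cells, and within 5 kb downstream of 15.9% and 16.2%. Both features in both lists, as at each of the 4 *ID* genes, were found at 611 genes, which is 3.04%. More than 50% of the record was covered on the gene strand at 2 *ID* genes, *ID1* and *ID3*, in both lists. This held for 0.343% of genes in untreated and 0.388% in treated cells. Among the 2363 genes of 1 to 5 kb, the shares were 1.4% and 1.61%.

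Beyond the 5 kb window, the next untreated peak was 32251 bp from *ID1*, 51520 bp from *ID3*, 152903 bp from *ID2* and 369822 bp from *ID4*. For treated peaks these distances were 32001 bp at *ID1*, 131904 bp at *ID3*, 152903 bp at *ID2* and 369572 bp at *ID4*. Inside the window, no gene-strand peak began more than 350 bp before a canonical start, and none ended more than 2770 bp beyond a gene end.

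In length of gene-strand peaks, the 4 genes were above the median of the 5934 genes with such peaks in both lists, which was 1000 bp for the untreated list and 1250 bp for the treated list. At least as many bp as at *ID3* were listed for 0.859% of these genes in untreated and 1.11% in treated cells. For *ID4* the shares were 6.94% and 7.31%, and for *ID2* 9.17% and 14.2%. *ID1* moved furthest in this order, from 3.20% to 18.8%. Since the genes were picked with their peaks already known, these places are a description, and nothing is read from them.

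**Figure D2:**
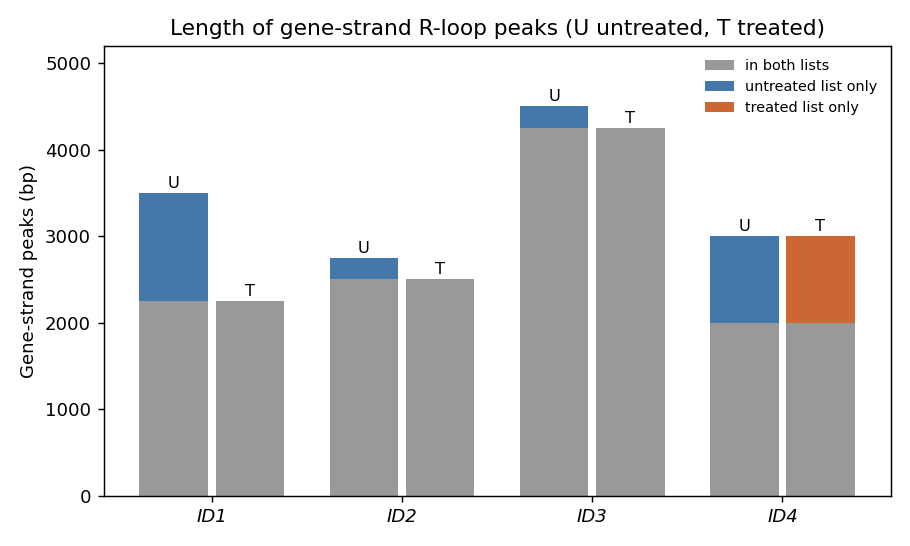
Length in bp of gene-strand peaks at each *ID* gene in the untreated (U) and treated (T) list, with 1 list per condition and no error bars. Grey is the length covered in both lists, blue in the untreated list only and orange in the treated list only. *ID1*, *ID2* and *ID3* have blue parts of 1250, 250 and 250 bp and no orange part, and *ID4* has 1000 bp of each.

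Of the bases with a gene-strand peak in either list, 74.6% were covered in both at the 4 genes together. This share was 94.4% at *ID3*, 90.9% at *ID2*, 64.3% at *ID1* and 50% at *ID4*. Relative to untreated cells, the covered length was lower by 1250 bp at *ID1*, and by 250 bp, the step in which nearly all peak borders of the lists move, at *ID2* and *ID3*. Of the 5934 genes with gene-strand peaks in both lists, 31.5% had fewer bp in the treated list, 34.8% had more and 33.7% had the same number, with a median difference of 0 bp. A difference of 1250 bp or more in this direction, as at *ID1*, was listed for 173 of them, or 2.92%. All gene-strand starts of the first peak were kept between the lists, and 3 of 4 last ends.

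Every *ID* peak overlapped a peak of the same strand in the other list, 8 of 8 untreated and 9 of 9 treated peaks, where 74.6% of all untreated and 69.2% of all treated peaks did. With a mutual overlap of 50% or more, 4 of 8 untreated and 4 of 9 treated *ID* peaks were matched, where 69.3% of all untreated and 63.9% of all treated peaks were. Both borders were the same for 2 of the 8 untreated peaks, the downstream peak of *ID2* and the opposite-strand peak of *ID4*, and for 32.2% of the whole untreated list. An untreated peak that overlapped at least 2 treated peaks of its strand, as at *ID1* and *ID3*, was seen 90 times in the list, or in 0.88% of peaks. Among the 16 untreated peaks of at least 3500 bp there were 4 such peaks, which is 25%. The opposite, a treated peak over at least 2 untreated ones as at *ID4*, was seen for 0.469% of treated peaks, and for 5.25% of those of at least 2250 bp. When peaks of 1 strand no more than 250 bp apart were joined, the treated peaks of *ID3* became 1 peak of 4500 bp, as in untreated cells, whereas those of *ID1*, which are 500 bp apart, did not join.

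**Figure D3:**
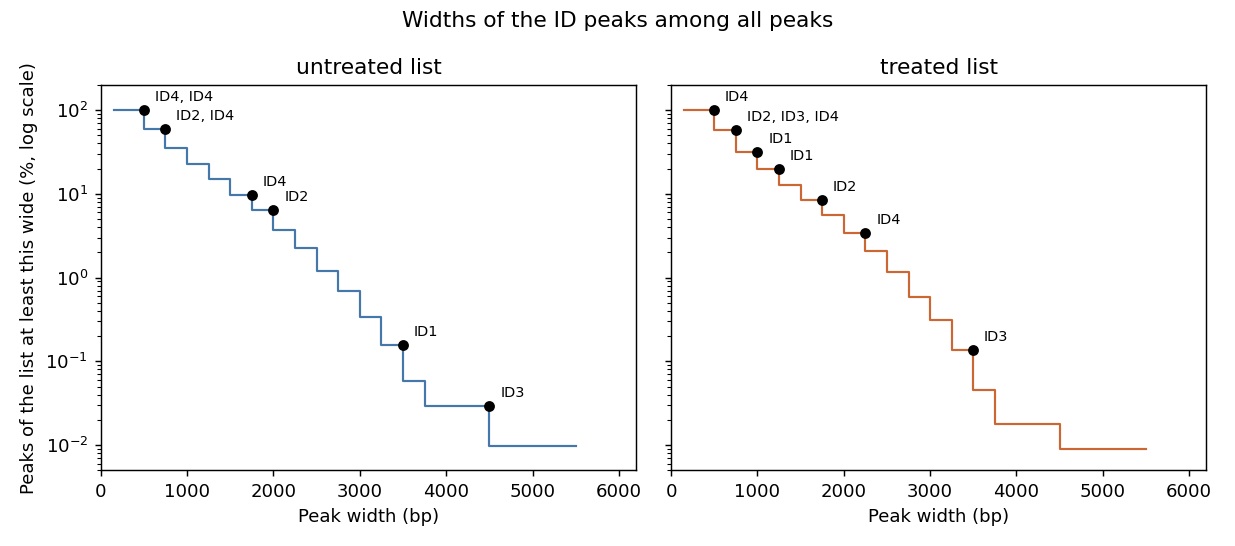
Share of peaks of each list in percent (vertical axis, log scale) that are at least as wide as the width in bp on the horizontal axis, with the *ID* peaks as black points. In the untreated list the *ID3* and *ID1* peaks, 4500 and 3500 bp wide, sit at 0.0293% and 0.156%, and in the treated list the widest *ID* peak, 3500 bp at *ID3*, sits at 0.135%.

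The widths of the *ID* peaks ranged from 500 to 4500 bp in untreated and from 500 to 3500 bp in treated cells, with medians of 1250 and 1000 bp, against 750 bp for all peaks of either list. A width of 2000 bp or more was reached by 3 of 8 untreated and 2 of 9 treated *ID* peaks. In the whole lists, 651 untreated and 625 treated peaks were that wide, or 6.36% and 5.64%. These widths too belong to peaks that were known when the genes were picked, and are given as a description. The narrowest *ID* peaks, of 500 bp, were all at *ID4*, and the peaks of *ID1*, *ID2* and *ID3* were at least 750 bp wide.

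Base composition was not used in choosing the genes. The median G + C content of the *ID* peaks was 58.2% in untreated and 60.9% in treated cells, and that of all peaks 56.2% and 57.6%. The quartiles of all peaks were 49.0% and 62.9% in untreated and 50.1% and 64.2% in treated cells. Within the family the spread was wide, from 35.3% for the untreated peak at the *ID4* gene end to 70.4% for that at its start. GC skew, (G - C)/(G + C) on the strand of the peak, was near 0 in most *ID* peaks. In untreated cells it ranged from -0.0664 for the first *ID2* peak to 0.161 for the opposite-strand peak at *ID4*. The downstream peak of *ID2*, unchanged between the lists, had a skew of 0.103 and 34.7 runs of 3 or more G per kb, where the median of all untreated peaks was 18 per kb.

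**Figure D4:**
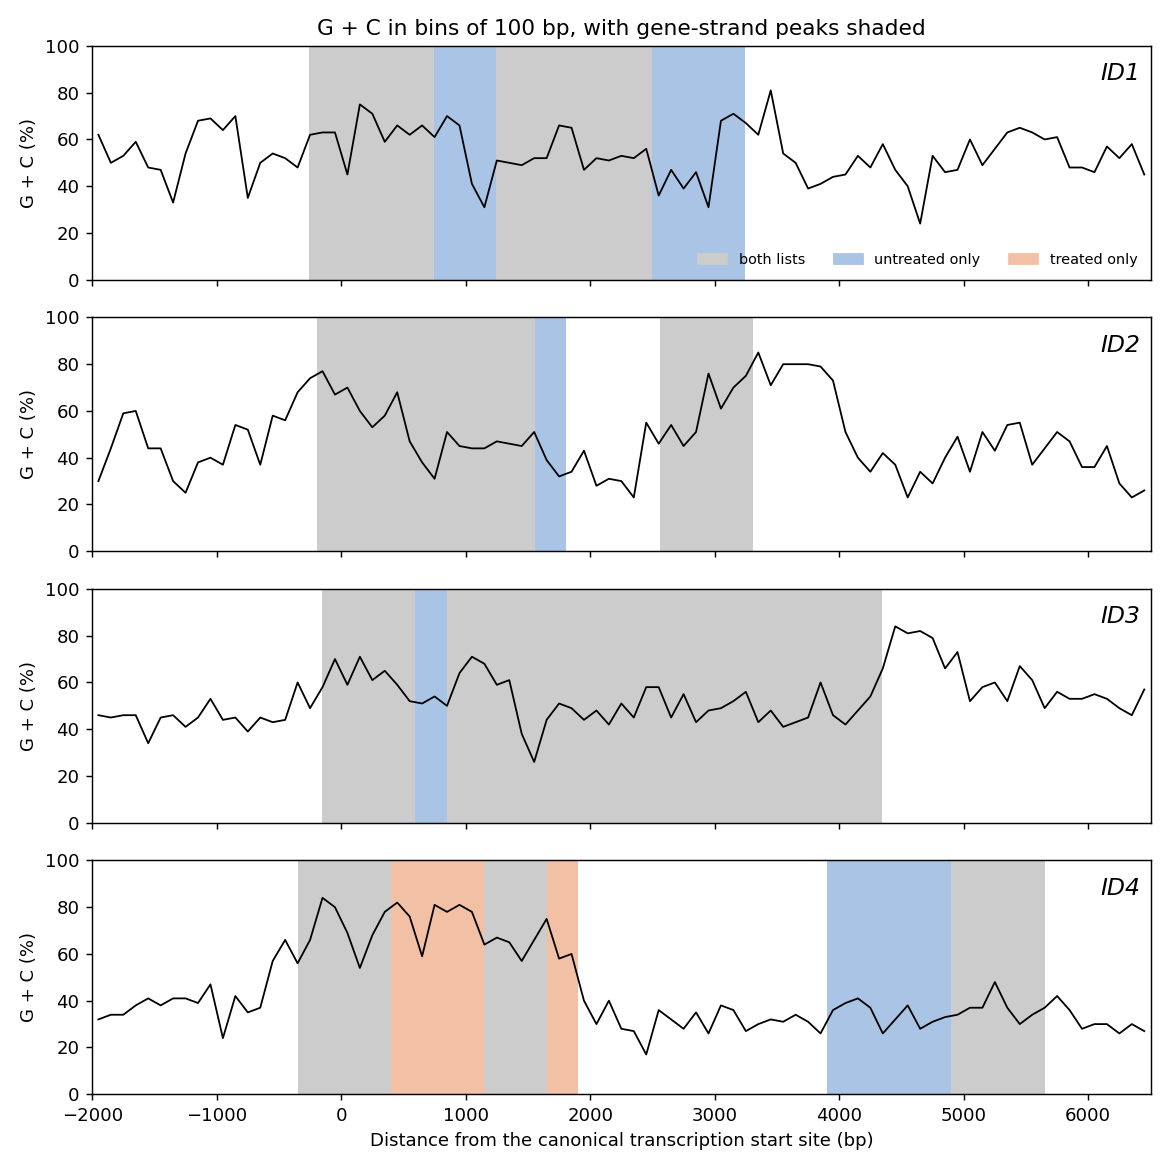
G + C in percent, in bins of 100 bp, against the distance from the canonical start site in bp on the gene strand. Grey shading marks gene-strand peaks of both lists, blue those of the untreated list only and orange those of the treated list only. At *ID4* the orange stretches have 76% and 62.8% G + C, and the blue stretch at the gene end has 34.1%.

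The bases that differed between the lists differed in composition within the family. Over all 4 genes, the 11000 bp covered in both lists had 54.9% G + C, the 2750 bp covered in the untreated list only had 42.8%, and the 1000 bp covered in the treated list only, all at *ID4*, had 72.7%. The runs of 3 or more G numbered 19, 11.3 and 34 per kb in this order. In all overlapping same-strand peaks of chromosomes 1 to 22 and X, the G + C content was 55.5% in bases covered in both lists. It was 50.7% in bases of the untreated list only and 53.3% in those of the treated list only. The runs of G numbered 18.8, 17.4 and 17.8 per kb. These values pool 7675, 2761 and 2822 stretches, so that single genes weigh little in them. At the *ID* genes, *ID4* alone gave all treated-only bases and 1000 of the 2750 untreated-only bp. The wider range there is therefore not read as a trait of the family. By gene, the untreated-only stretches had 50% G + C in the gap and 48.8% at the 3′ end of *ID1*, 39.2% at *ID2*, 49.2% at *ID3* and 34.1% at *ID4*.

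**Figure D5:**
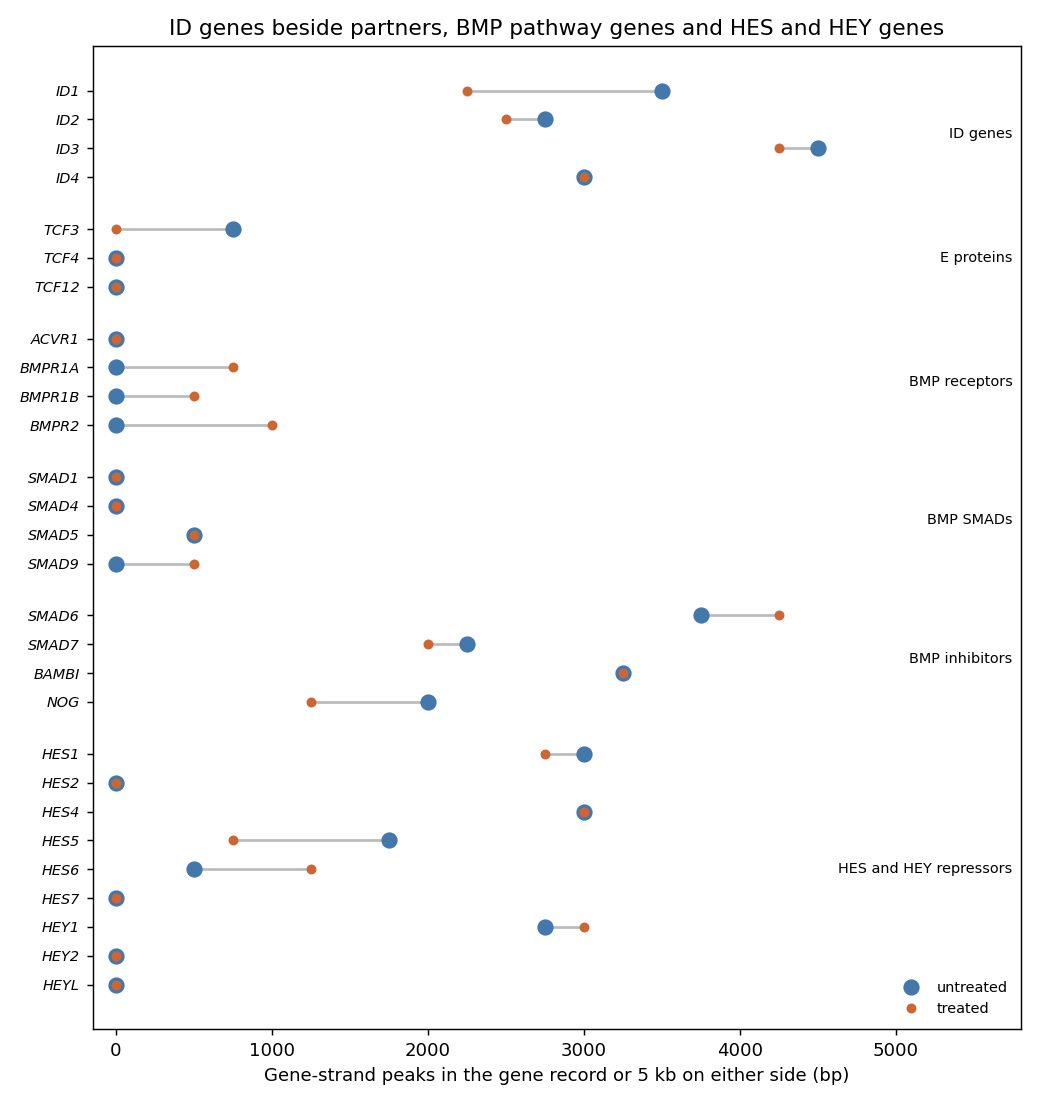
Length in bp of gene-strand peaks in the gene record or 5 kb on either side, for the *ID* genes and 24 genes related to them, with large blue points for the untreated and small orange points for the treated list. The *ID* genes lie between 2250 and 4500 bp, and of the other genes *SMAD6*, *BAMBI*, *HES1*, *HES4* and *HEY1* reach 2750 bp or more in both lists. The lengths include the flanks, and at *HES4* 0% of the gene record was covered in both lists.

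The genes that act with or upstream of the *ID* genes were examined in the same way, together with the related HES and HEY repressors. These repressors are 9 of the 24 genes, and 7 of them had a peak in each list. A peak on either strand lay within 5 kb of 15 of these 24 genes in untreated and 17 in treated cells, which is 62.5% and 70.8%, beside the 45.5% and 47.8% of all protein-coding genes. With the gene record alone, 9 and 12 genes had a peak, where 31.8% and 34.2% of all protein-coding genes did. A peak in the flanks can belong to a neighboring gene. Of the E proteins, the partners that ID proteins hold off DNA, *TCF3* had a gene-strand peak of 750 bp downstream of the gene in the untreated list only, *TCF4* had a peak on the opposite strand in both lists, and *TCF12* had none.

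Of the BMP receptors, 1 of 4 had a peak on either strand in untreated and 3 of 4 in treated cells. The shares of all protein-coding genes with such a peak were 45.5% and 47.8%. For peaks on the gene strand alone, 6.84% of all protein-coding genes had one in the treated list only and 5.11% in the untreated list only. With 4 long genes of 140080 to 400494 bp, nothing is read from the receptors' counts. *BMPR2*, the type II receptor, had 2 peaks in each list. None of the untreated ones was on the gene strand, and 1 treated peak was, with 1000 bp over the start. *BMPR1A* and *BMPR1B*, type I receptors, had gene-strand peaks of 750 and 500 bp in the treated list only, and *ACVR1* had none in either list. Among the SMADs that carry the signal, 1 of 4 had a peak on either strand in untreated and 2 of 4 in treated cells. The shares of all protein-coding genes were 45.5% and 47.8%, and nothing is read from counts among 4 genes. *SMAD5* had a peak of 500 bp over its start in both lists, *SMAD9* had 500 bp in the treated list only, and *SMAD1* and *SMAD4* had none.

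The inhibitors of the pathway, of which *SMAD6*, *SMAD7* and *BAMBI* are themselves known to be induced by BMP or related signals, had gene-strand peaks in both lists at 4 of 4 genes, each with a peak downstream of the gene. Over all protein-coding genes, 29.5% had a gene-strand peak in both lists, and 15.9% and 16.2% had one downstream in the untreated and treated list. *SMAD6* had 3750 bp of such peaks without and 4250 bp with the nucleoside, *SMAD7* 2250 and 2000 bp, and *NOG*, which encodes a secreted BMP antagonist, 2000 and 1250 bp. *BAMBI*, which encodes a decoy receptor, had 3250 bp in both lists. Most of this length lay outside the gene records. The share of the record covered was 0% at *SMAD7*, 1.86% at *SMAD6* and 22.7% at *BAMBI* in both lists. At *NOG* it was 26.1% in untreated and 0% in treated cells. Of these inhibitors, only *BAMBI* had a gene-strand peak over its start. Of the HES and HEY genes, which encode helix-loop-helix repressors best known as Notch targets, 7 of 9 had a peak in both lists. On the gene strand, 5 of 9 had one in both lists, beside 29.5% of all protein-coding genes. For either strand only shares of single lists are at hand, 45.5% of all protein-coding genes without and 47.8% with the nucleoside. Nothing is read from counts among 9 genes. At *HES4*, *HES5* and *HES6* the gene-strand peaks lay in the flanks, with 0% of the record covered in both lists. *HES1* had 3000 bp without and 2750 bp with the nucleoside, with 75.7% and 66.0% of its record covered, and *HEY1* had 2750 and 3000 bp. A peak over the start and one downstream in both lists, as at the *ID* genes, was found at 3 of the 24 genes, *BAMBI*, *HES1* and *HEY1*, where 3.04% of all protein-coding genes had both.

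Genes with the most similar layout were sought among all protein-coding genes with a gene-strand peak by the distance, in percentage points, over 6 values: the covered shares of the gene record, of 5 kb upstream and of 5 kb downstream, each in both lists. The nearest to *ID1* was *TUBB4B*, a tubulin gene, at 26.0 points, with 100% of its record covered in untreated and 79.3% in treated cells. It was followed by *DDIT4* and by *UBB*, a ubiquitin gene, at 26.4 and 32.4 points. The nearest to *ID3* were the histone genes *H2AC13*, *H3C13* and *H2AC19*, at 21.3, 23.2 and 24.5 points, whose records of 495, 469 and 534 bp are shorter than that of *ID3*. The same 3 genes, *TMEM107*, *RBM3* and *HEY1*, were nearest to both *ID2*, at 9.14, 9.27 and 9.45 points, and *ID4*, at 12.6, 8.95 and 12.8 points.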

How the data were processed

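Per the study's methods and the submitters' processing notes, Trim Galore was used by the authors for trimming, Bowtie2 at default settings for alignment to hg19, and Picard for duplicates. R-loops were then defined by a published spKAS-seq procedure with 2 replicates. Versions are not given in the sources used here. The deposited files are 2 lists, each attached to replicate 1 of its condition, which give for each peak its chromosome, both borders and its strand, and no score. Whether a list stands for both replicates is not stated in it. The lists hold 10231 and 11085 peaks, which are the numbers of R-loop peaks the paper reports for untreated and treated cells. Inputs, reads and signal were not used here.

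Positions are given 1-based. Chromosome names were the same as in GRCh37 for chromosomes 1 to 22 and X, and 0 peaks ran past a chromosome end. Genes came from GENCODE release 44 mapped to GRCh37. Lists were compared from 1 bp of overlap on the same strand, and peaks with more than 50% masked bases were left out of base composition. The interval operations passed all 1801 checks on simulated intervals. Python 3.11.15 with scipy 1.17.1 and matplotlib 3.10.9 was used. Named were the *ID* genes, genes overlapped by their peaks, listed pathway genes, and the 3 nearest genes in layout. The members and lists were chosen with earlier results of these data known. Peaks within a list are not replicates, so no test was made. Other flanks, overlaps, strand rules, gene sets and joined peaks were tried.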

Additional observations from a re-analysis of the deposited data

How the results depend on the processing

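No paired analysis was possible because only 1 list per condition was analysed here and none of the values is a test. For the same reason, no replicate was left out. For 22 results, 42 values were recomputed, of which 10 moved. With the gene record alone, 6 untreated *ID* peaks remained of 8 and 5 treated of 9, so that the untreated list then had more, and 9 pathway genes had an untreated peak. With reciprocal overlaps of 50% and 90%, 4 and 2 untreated and 4 and 2 treated *ID* peaks were shared. Fewer peaks enter by construction. The share of genes with a peak was 22.4% in untreated and 23.6% in treated cells over all annotated genes, and 34.5% and 35.3% over protein-coding genes of 1 to 5 kb. Flanks of 2 and 10 kb gave the same 8 and 9 *ID* peaks. The lists have no heights, so the read depth behind any border is unknown.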
